A study of Mus musculus with 48 samples.

Results

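The mRNAs of 9 glycolysis enzymes were followed in kidneys of mice that received D-alanine (D-Ala) or vehicle. The 9 genes were taken by symbol from the expression tables, which hold 49585 genes each: the hexokinases Hk1 and Hk2, the glucose-6-phosphate isomerase Gpi1, the phosphofructokinases Pfkl and Pfkm, the aldolase Aldoa, the pyruvate kinase Pkm, and the lactate dehydrogenases Ldha and Ldhb. All 9 symbols matched 1 row in both tables. The filter on low values (at least 1 FPKM in at least 4 libraries) kept 14922 genes, among them 8 of the 9 enzymes. Hk2 did not pass it and was described without a test.

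The series asked how D-alanine, the enantiomer of the protein-building L-alanine, bears on the circadian rhythm. Whole kidneys of wild-type mice were profiled by RNA-seq at circadian times CT0, CT4, CT8, CT12, CT16 and CT20, in hours, after D-Ala or vehicle, which gave 12 groups of 4 libraries. The series text describes kidneys of different mice in an experiment that was run 2 times. The labels give no dose, route, strain name, age or sex. The values lie in 2 tables with 2 libraries of every group in each; replicates 1 and 2 are those of the first table, and replicates 3 and 4 those of the second. The tables were read as the 2 runs, which is an inference.

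Glycolysis splits glucose into pyruvate and yields ATP without oxygen. Hexokinase traps glucose in the cell as glucose-6-phosphate, phosphofructokinase catalyses the committed step, pyruvate kinase the last one, and lactate dehydrogenase interconverts pyruvate and lactate. In the kidney, proximal tubules burn fatty acids and make glucose, whereas the poorly oxygenated medulla depends on glycolysis.

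Each library held between 7626060 and 14403230 fragments (median 11601135). Mitochondrially encoded genes took 28.9% to 46.0% of FPKM in D-Ala and 35.4% to 47.0% in vehicle libraries of the first table, against 14.9% to 19.1% in D-Ala and 16.9% to 23.4% in vehicle libraries of the second. All 7 proximal tubule markers were detected, with a median of 213 FPKM over the genes. Of 6 skeletal muscle markers, Myh4 was listed at 0 in every library and 5 had a mean under 1 FPKM. Both D-Ala libraries of CT0 in the first table stood apart: their 7 endothelial markers summed to 269 and 458 FPKM and their proximal tubule markers to 1957 and 1855 FPKM. The vehicle libraries of the same time and table had endothelial sums of 192 and 110.1 FPKM and proximal tubule sums of 2268 and 3088 FPKM. In such bulk samples, fewer cells of a type and less RNA per cell cannot be told apart.

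Promoter windows are shown for 4 genes because 2 of them, Ldha and Pkm, changed with time of day, while Ldhb and Pfkm did not pass that test. The windows are the 250 bases before a RefSeq transcription start on GRCm38.p6, written 5′ to 3′ on the strand of the gene; all 9 genes matched, with 17 starts. Where a gene has several starts (Ldha, Pkm and Pfkm), the window shown is 1 that holds a motif. Capitals mark the E-box CACGTG, bound by the circadian activators CLOCK and BMAL1, and the hypoxia response core ACGTG (or its reverse complement CACGT), which each E-box also contains on both strands. The windows are chr7:46845554-46845803 on the plus strand for Ldha, chr9:59656977-59657226 on the plus strand for Pkm, chr15:98092339-98092588 on the plus strand for Pfkm and chr6:142507958-142508207 on the minus strand for Ldhb.
Ldha: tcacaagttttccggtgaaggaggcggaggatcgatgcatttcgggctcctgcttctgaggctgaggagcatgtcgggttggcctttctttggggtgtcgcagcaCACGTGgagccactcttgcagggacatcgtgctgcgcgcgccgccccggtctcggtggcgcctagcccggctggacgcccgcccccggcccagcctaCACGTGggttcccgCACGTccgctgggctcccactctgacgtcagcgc
Pkm: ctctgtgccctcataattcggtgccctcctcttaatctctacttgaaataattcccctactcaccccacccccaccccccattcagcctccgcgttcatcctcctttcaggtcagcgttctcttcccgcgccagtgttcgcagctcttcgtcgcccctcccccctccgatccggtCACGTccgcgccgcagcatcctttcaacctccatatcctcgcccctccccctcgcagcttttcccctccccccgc
Pfkm: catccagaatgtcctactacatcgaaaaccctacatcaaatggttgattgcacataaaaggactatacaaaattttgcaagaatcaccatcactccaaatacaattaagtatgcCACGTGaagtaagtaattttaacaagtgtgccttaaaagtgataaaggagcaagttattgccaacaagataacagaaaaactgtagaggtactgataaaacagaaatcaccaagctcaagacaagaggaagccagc
Ldhb: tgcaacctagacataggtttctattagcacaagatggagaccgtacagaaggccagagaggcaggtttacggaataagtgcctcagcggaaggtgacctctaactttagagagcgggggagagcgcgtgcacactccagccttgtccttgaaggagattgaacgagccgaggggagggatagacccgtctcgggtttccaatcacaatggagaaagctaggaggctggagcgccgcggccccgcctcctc
The Ldha window held 2 E-boxes, beginning 145 and 48 bases before the start, and 1 further ACGTG core at 34 bases. The Pkm window held 1 core at 75 bases and no E-box, the Pfkm window 1 E-box at 136 bases, and the Ldhb window neither motif. Searched on both strands, CACGTG was present in 2 of the 17 member windows and in 6.02% of 32851 RefSeq windows of the same length. ACGTG was present in 7 of the 17 windows, belonging to 5 genes, and in 16.6% of all windows; 2 of the 7 are overlapping Aldoa windows that hold the same core. The D-box TTANGTAA, read by PAR bZIP factors such as DBP, was present in 0 of the 17 windows and in 2.06% of all.

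The enzymes spanned a wide range of levels in FPKM, which divides fragments by a length for each gene. With summed GENCODE M21 exons as that length, recovered fragments were whole for Hk1 (8532 bases), Ldha (3310) and Ldhb (1570). They were not whole for Pfkl, Pfkm and Aldoa, so the length used for these genes is not known. The order of genes and the isozyme shares rest on these lengths as well as on fragments. Over the 48 libraries the order of mean level was Ldhb, Aldoa, Ldha, Gpi1, Pkm, Pfkm, Pfkl, Hk1 and Hk2. Ldhb alone made up 49.5% ± 5.40 of the summed FPKM of the 9 genes, Aldoa 22.4% ± 3.24 and Ldha 14.2% ± 1.47 (SD, n = 48). Each of the first 3 steps of the order held in 48 of 48 libraries. Gpi1 was above Pkm in 45 of 48, Pfkm above Pfkl in 39 of 48 and Pfkl above Hk1 in 44 of 48, so these neighbours were less firmly ordered, whereas Pkm was above Pfkm and Hk1 above Hk2 in 48 of 48.

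**Figure D1:**
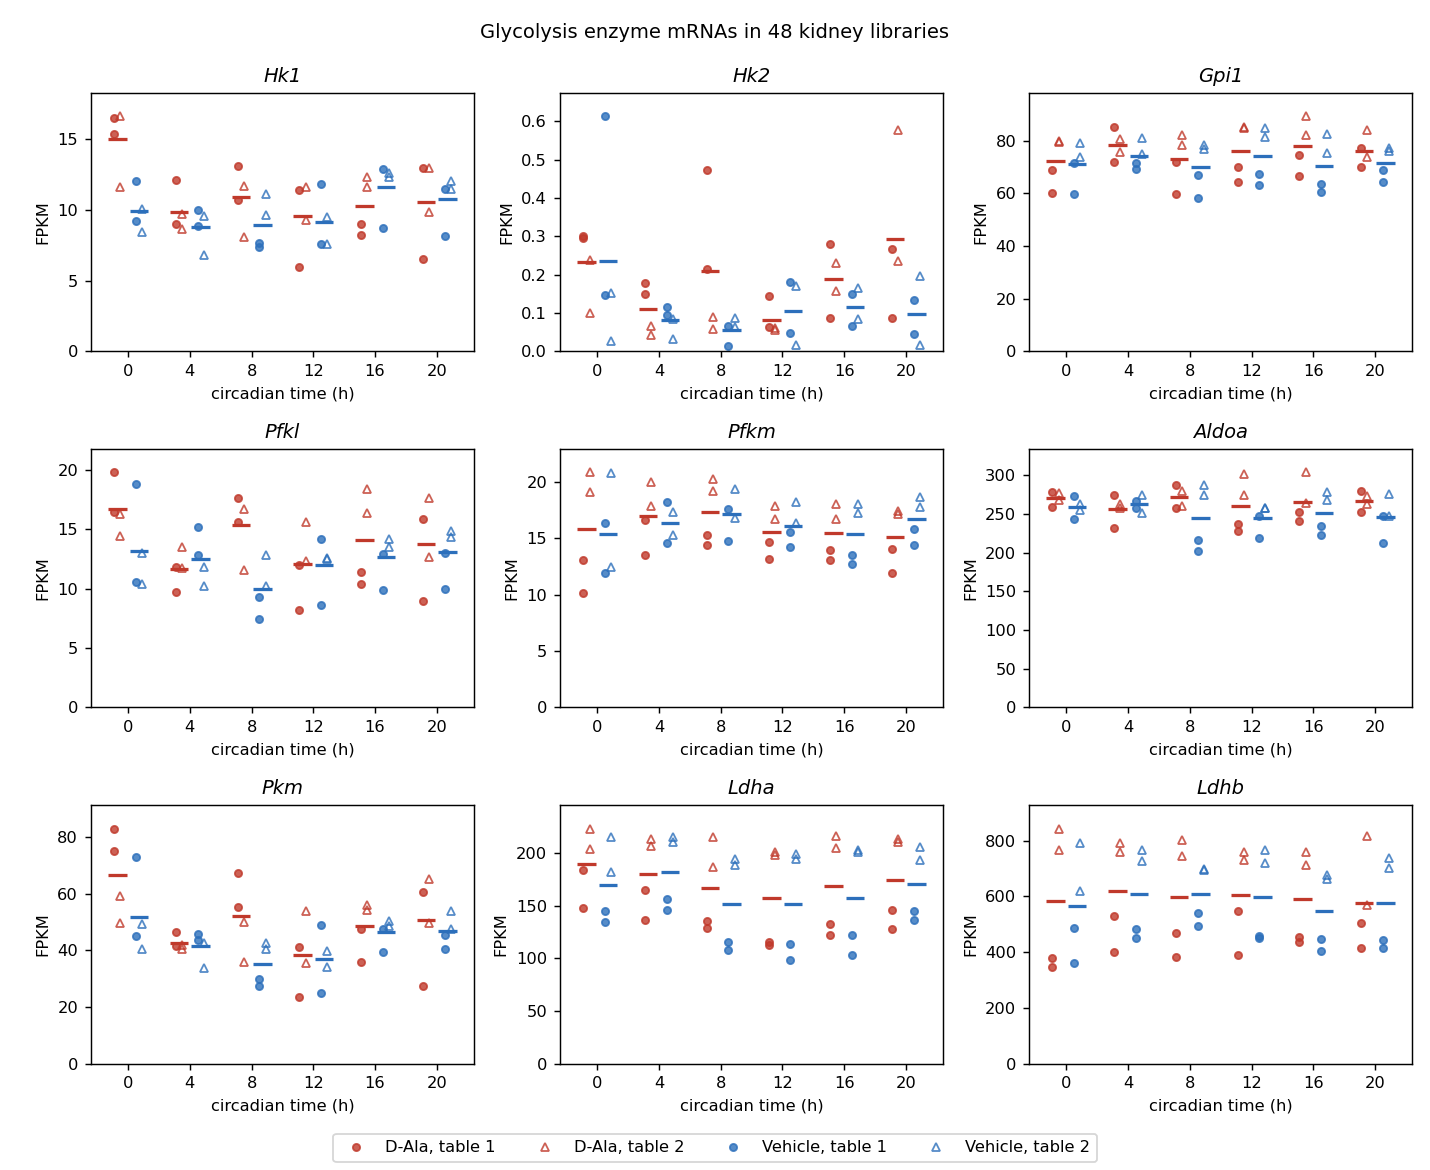
FPKM of each of the 9 enzymes in every library against circadian time in hours, with D-Ala (red) left of vehicle (blue) at each time, filled circles for the first table, open triangles for the second and a line at the mean of the 4 libraries. Ldha and Ldhb are separated by table at nearly all times, and the 3 highest Hk1 values are D-Ala libraries of CT0.

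Hexokinases carry out the entry step. Hk1 (chr10:62268855-62379908, minus strand) is the ubiquitous form that binds mitochondria. It ranged from 5.94 through a median of 11.5 to 16.6 FPKM in 24 D-Ala libraries and from 6.79 through 9.62 to 12.9 FPKM in 24 vehicle libraries. Hk2 (chr6:82725025-82774454, minus strand), the insulin-responsive form of muscle and fat, averaged 0.186 ± 0.136 FPKM in D-Ala and 0.115 ± 0.120 FPKM in vehicle kidneys (SD, n = 24 each). That is 3 to 43 fragments per D-Ala library and 1 to 36 per vehicle library, with none at 0, so no time course could be read from it. Hk1 accounted for 98.3% ± 1.23 of Hk1 plus Hk2 in D-Ala and 98.9% ± 0.969 in vehicle libraries. The hexokinase genes Hk3 and Hkdc1 also failed the filter, with means of 0.195 and 0.575 FPKM over 48 libraries. Hk1os, the antisense gene at Hk1, averaged 0.470 FPKM in D-Ala and 0.423 FPKM in vehicle libraries, and without knowledge of the strand its reads and those of Hk1 cannot be told apart.

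Hk1 at CT0 was the clearest treatment difference among the hexokinases and still missed the threshold. It measured 15.4, 16.5, 16.6 and 11.6 FPKM in the D-Ala kidneys, and 12.1, 9.26, 10.05 and 8.43 FPKM in the vehicle kidneys. Of the D-Ala libraries, 3 lay above all vehicle libraries, and replicate 4 fell under the highest vehicle value. The log2(FPKM + 1) difference, D-Ala minus vehicle, was 0.55 (95% interval 0.16 to 0.93, unadjusted p = 0.00654, adjusted p = 0.102 by limma over all genes tested). Without vehicle CT0 replicate 1, or without D-Ala CT0 replicate 4, 1 of 8 members was called at that time, Hk1. These libraries held the highest vehicle and the lowest D-Ala value of Hk1, so leaving either out widens its difference. With all libraries 1.14% of all genes were called at CT0, and the share in the fits without these libraries was not recorded. The 7 endothelial markers summed to 269, 458, 141 and 109 FPKM in the same D-Ala libraries and to 192, 110.1, 103 and 93.7 FPKM in the vehicle libraries. All 4 inner medulla and thin limb markers had a CT0 difference above 0, with a median of 1.05 and 0 called. Over all genes tested, 69.5% had a CT0 difference above 0, with a median of 0.12. The part of both lists in the Hk1 difference at CT0 was not tested.

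Gpi1 (chr7:34201330-34230336, minus strand) converts glucose-6-phosphate to fructose-6-phosphate. It ranged from 59.7 through 76.4 to 89.3 FPKM in D-Ala and from 58.3 through 72.7 to 84.6 FPKM in vehicle libraries, and the ranges overlapped almost entirely. Its mean was higher in D-Ala in 11 of the 12 combinations of time and table. Among the other members that count ran from 4 for Pfkm to 9 for Pfkl, Pkm and Ldha. The mean difference of Gpi1 was 0.07 on the log2 scale (SE 0.03, adjusted p = 0.189 by limma). Over all genes tested the median was 0.06, with 76.3% above 0.

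Phosphofructokinases form the main control point of the pathway, Pfkl being the liver-type and Pfkm the muscle-type subunit. Pfkl (chr10:77986947-78010083, minus strand) averaged 14.0 ± 3.20 FPKM in D-Ala and 12.2 ± 2.51 FPKM in vehicle libraries. Pfkm (chr15:98092589-98132447, plus strand) averaged 16.1 ± 2.86 FPKM in D-Ala and 16.2 ± 2.30 FPKM in vehicle libraries (SD, n = 24 each). Pfkm made up 53.7% ± 7.19 of Pfkm plus Pfkl in D-Ala and 57.1% ± 5.97 in vehicle libraries, ranges that overlap widely. The platelet-type subunit Pfkp was lower than both, at 4.23 ± 1.09 FPKM in D-Ala and 3.95 ± 0.725 FPKM in vehicle libraries.

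Pfkl differed most at CT8, with 17.7, 15.6, 11.5 and 16.7 FPKM in D-Ala kidneys and 9.34, 7.44, 12.8 and 10.2 FPKM in vehicle kidneys. In the first table both D-Ala values exceeded both vehicle values, while in the second the groups overlapped. The log2 difference was 0.59 (95% interval 0.20 to 0.98, unadjusted p = 0.00435, adjusted p = 0.272). At that time no gene of the 14922 passed the adjusted threshold. The 7 endothelial markers summed to 209, 142, 93.1 and 140.4 FPKM in the D-Ala and to 67.5, 66.0, 85.9 and 87.6 FPKM in the vehicle libraries of CT8, without overlap. All 7 had a CT8 difference above 0, with a median of 0.78 and 0 called, beside a median of 0.10 and 71.9% above 0 over all genes. The inner medulla and thin limb list had 3 of 4 above 0 with a median of 0.89, and the adipose list 4 of 4 tested with a median of 0.82, again with 0 called. Their part in the Pfkl difference at CT8 was not tested.

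Aldolase A (Aldoa, chr7:126795234-126809108, minus strand) splits fructose-1,6-bisphosphate. It averaged 265 ± 19.3 FPKM in D-Ala and 251 ± 23.1 FPKM in vehicle libraries (SD, n = 24 each). The near-identical testis retrogenes Aldoart1 and Aldoart2 averaged at most 0.0134 FPKM.

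Pyruvate kinase M (Pkm, chr9:59656368-59679375, plus strand) makes pyruvate and ATP in most tissues outside the liver. It ranged from 23.5 through 49.6 to 83.1 FPKM in D-Ala and from 24.9 through 43.1 to 72.9 FPKM in vehicle libraries. The liver and red cell isozyme Pklr averaged 8.55 ± 2.57 FPKM in D-Ala and 8.82 ± 2.44 FPKM in vehicle libraries.

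Lactate dehydrogenase subunits combine into tetramers, in which LDHB favours the oxidation of lactate and LDHA the reduction of pyruvate. Ldhb (chr6:142490249-142507957, minus strand) averaged 597 ± 174 FPKM in D-Ala and 584 ± 141 FPKM in vehicle libraries. Ldha (chr7:46841475-46855627, plus strand) averaged 173 ± 38.9 FPKM in D-Ala and 164 ± 40.3 FPKM in vehicle libraries (SD, n = 24 each). Ldhb was 77.1% ± 3.53 of Ldhb plus Ldha in D-Ala and 78.0% ± 2.50 in vehicle libraries. The lowest share, 65.4%, came from the D-Ala library at CT0 with the highest endothelial marker sum. The pseudogene Ldha-ps2, which may share reads with Ldha, averaged 0.695 FPKM in D-Ala and 0.561 FPKM in vehicle libraries.

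**Figure D2:**
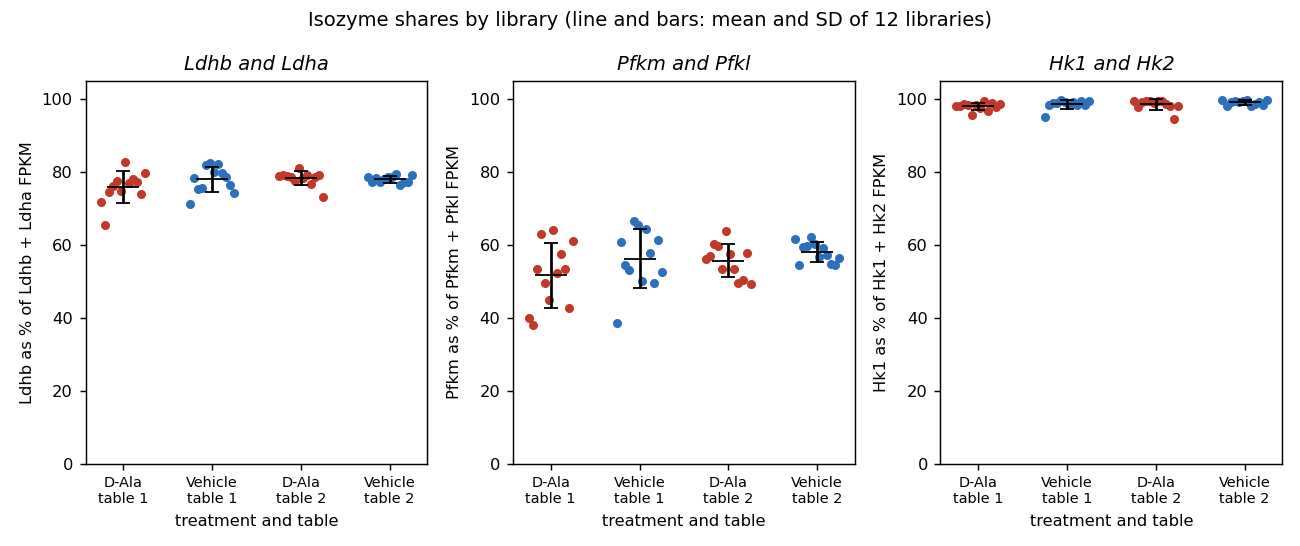
Share of one isozyme in the summed FPKM of a pair, in percent, for Ldhb of Ldhb plus Ldha, Pfkm of Pfkm plus Pfkl and Hk1 of Hk1 plus Hk2; points are libraries, D-Ala left of vehicle in each table, and the black line and bars are the mean and SD of 12 libraries. The shares overlap between treatments in both tables, with the widest spread for Pfkm in the first table.

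The level of both Ldh genes depended on the table. Ldhb averaged 735 ± 61.7 FPKM in the second table and 446 ± 55.1 FPKM in the first (SD, n = 24 each). Ldha averaged 204 ± 10.5 FPKM in the second and 133 ± 20.2 FPKM in the first. On the log2 scale the second table was higher by 0.72 for Ldhb, 0.63 for Ldha, 0.31 for Pfkm, 0.24 for Gpi1 and 0.13 for Aldoa. The differences of Pfkl, Hk1 and Pkm were 0.14, 0.06 and 0.05. After rescaling each library without its mitochondrial genes, the difference was 0.42 for Ldhb, 0.33 for Ldha and 0.02 for Pfkm. It turned round for the other members tested, to −0.06 for Gpi1, −0.17 for Aldoa, −0.14 for Pfkl, −0.21 for Hk1 and −0.24 for Pkm. All tests below hold the table as a term.

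No enzyme passed the adjusted threshold for a difference between D-Ala and vehicle averaged over the 6 times. With limma, 0 of 8 tested members were called, against 1.74% of all genes, and limma voom on fragments recovered from the FPKM steps also called 0. The log2 differences were 0.18 for Pkm (SE 0.09, adjusted p = 0.261), 0.17 for Pfkl (SE 0.08, adjusted p = 0.214), 0.13 for Hk1 (SE 0.08, adjusted p = 0.335) and 0.09 for Ldha (SE 0.04, adjusted p = 0.189). Aldoa differed by 0.08 (SE 0.03, adjusted p = 0.165), Ldhb by 0.01 (SE 0.05, adjusted p = 0.917) and Pfkm by −0.02 (SE 0.05, adjusted p = 0.864). Unadjusted p-values were under 0.05 for 4 of the 8, namely Gpi1, Pfkl, Aldoa and Ldha, beside 20.5% of all genes. The values of 7 of 8 members were above 0 with a median of 0.08, beside a median of 0.06 and 76.3% above 0 over all genes tested. Rescaling to TPM, which moved the median of all genes to 0.11, put Gpi1, Aldoa and Ldha past the threshold, with differences of 0.13, 0.14 and 0.14 and adjusted p of 0.00835, 0.0153 and 0.0274; on that scale 14.2% of all genes tested were called.

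**Figure D3:**
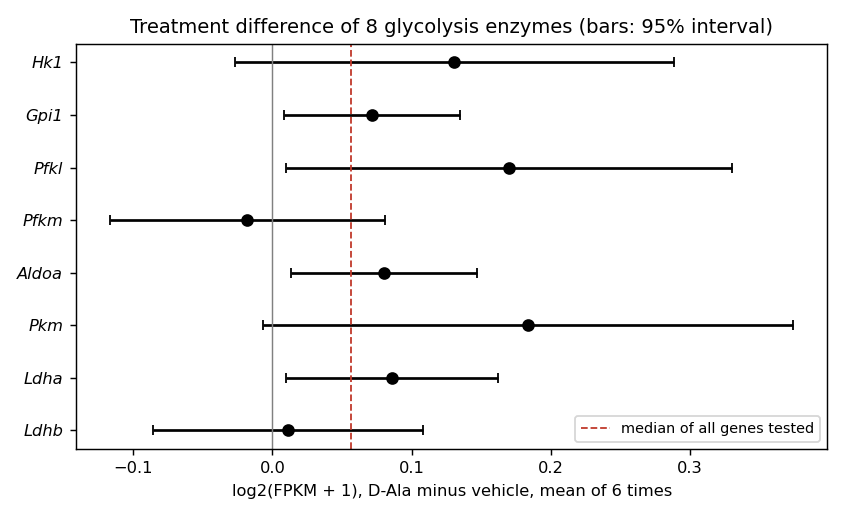
D-Ala minus vehicle on the log2(FPKM + 1) scale, averaged over the 6 times, for the 8 enzymes tested, with 95% intervals; the dashed line is the median of all genes tested at 0.06. The estimates run from −0.02 for Pfkm to 0.18 for Pkm, and the intervals of Hk1, Pfkm, Pkm and Ldhb include 0.

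No enzyme passed at a single time either. At CT0, 0 of 8 members were called by limma against 1.14% of all genes, with Hk1 alone under an unadjusted p of 0.05, beside 21.99% of all genes. At CT8, 0 of 8 were called against 0% of all genes, with Pfkl and Pkm under 0.05 unadjusted, beside 14.8% of all genes. At CT4, CT12, CT16 and CT20, 0 of 8 were called against 0% of all genes, with 0 under 0.05 unadjusted, and voom called 0 at each of the 6 times. The test of whether the treatment difference varied with time called 0 of 8 against 0% of all genes, with 0 under 0.05 unadjusted. The test of whether it varied with table also called 0 of 8 against 0%, where Pfkm had an unadjusted p of 0.0282.

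Of the 33 other genes of glycolysis and pyruvate use that were listed, 26 were tested and 0 were called by limma for the mean difference. Of the 26, 12 were above 0, with a median of −0.02. Over all genes tested 1.74% were called and 76.3% were above 0, with a median of 0.06. The smallest p-values belonged to Bpgm, which makes 2,3-bisphosphoglycerate (log2 difference 0.17, SE 0.06, adjusted p = 0.0939), to the phosphoglycerate kinase Pgk1 (0.11, SE 0.05, adjusted p = 0.199) and to the phosphoglycerate mutase Pgam1 (0.18, SE 0.08, adjusted p = 0.208). None of these passed. Among 12 listed regulators and targets of hypoxia-inducible factors outside glycolysis, 0 of 12 were called against the same 1.74%. Of these, 8 were above 0, with a median of 0.02.

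Of the enzymes, 2 changed with time of day. Fitted with a 24 h cosine averaged over both treatments, Ldha and Pkm passed, 2 of 8 members against 25.9% of all genes tested, so the share of rhythmic members was close to that of genes in general. Ldha had an amplitude of 0.14 on the log2 scale (SE 0.03), a 1.21-fold difference between peak and trough, a peak at 0.434 h and an adjusted p of 0.000372. Pkm had an amplitude of 0.24 (SE 0.07), a 1.39-fold difference, a peak at 22.4 h and an adjusted p of 0.0248. With times as a factor and no curve, the same 2 of 8 passed, against 20.5% of all genes (adjusted p = 0.00457 for Ldha and 0.0455 for Pkm). The other members had adjusted p-values of 0.158 for Hk1, 0.275 for Pfkm, 0.294 for Pfkl, 0.337 for Ldhb, 0.641 for Aldoa and 0.975 for Gpi1. Hk1 passed without D-Ala CT20 replicate 1 (adjusted p = 0.0413), and Pfkl in the second table alone (amplitude 0.17, adjusted p = 0.0384), where 20.4% of all genes passed.

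By the mean of 4 libraries, Ldha was highest at CT0 in D-Ala and at CT4 in vehicle kidneys, and in the first table it was lowest at CT12 in both. Replicates are given in the order 1 to 4, the first pair from the first table. At CT0, Ldha measured 148, 184, 204 and 223 FPKM in D-Ala and 145, 135, 215 and 182 FPKM in vehicle kidneys. At CT4 it measured 165, 137, 207 and 213 FPKM in D-Ala and 146, 157, 216 and 211 FPKM in vehicle kidneys. Values of the 2 treatments overlapped at both times. At CT8 it measured 128, 136, 187 and 215 FPKM in D-Ala and 115, 108, 188 and 194 FPKM in vehicle kidneys. At CT12 it measured 113, 116, 201.3 and 198 FPKM in D-Ala and 114, 98.9, 194 and 199 FPKM in vehicle kidneys. All 4 first-table values at CT12 were below all 4 first-table values at CT0. At CT16 it measured 133, 122, 205 and 216 FPKM in D-Ala and 122, 103, 200.9 and 203 FPKM in vehicle kidneys. At CT20 it measured 128, 146, 210.1 and 213 FPKM in D-Ala and 145, 137, 193 and 206 FPKM in vehicle kidneys. By CT20 the first-table values were again above those of CT12 in both treatments.

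The Ldha curve had nearly the same size and phase in both treatments. Its amplitude was 0.13 (SE 0.04) with a peak at 0.430 h in D-Ala and 0.14 (SE 0.04) with a peak at 0.437 h in vehicle kidneys, with adjusted p-values of 0.0436 and 0.0236. It was the only member called in either treatment, 1 of 8 in D-Ala against 8.3% of all genes and 1 of 8 in vehicle against 9.77%. For Ldha, the limma F test of the difference between both curves had an unadjusted p of 0.983. In that test 0 of 8 members were called against 0% of all genes, with 0 under 0.05 unadjusted and 0 called by voom. The D-Ala call was lost, with an adjusted p of 0.0503 to 0.159, without any 1 of 12 D-Ala libraries: CT0 replicates 1, 2 and 4, CT4 replicate 1, CT8 replicates 1 and 3, all 4 of CT12, CT16 replicate 2 and CT20 replicate 2. The vehicle call was lost without vehicle CT12 replicate 2 (adjusted p = 0.0821). Without both D-Ala libraries of CT0 in the first table the amplitude in D-Ala was 0.10 (adjusted p = 0.262), whereas the curve averaged over treatments kept an amplitude of 0.12 (adjusted p = 0.00203).

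The Ldha rhythm lay mostly in the first table. Its amplitude there was 0.24 (adjusted p = 0.00108), against 0.04 in the second (adjusted p = 0.464). The difference between tables, tested after the data were seen, had an adjusted p of 0.0310 for Ldha, 1 of 8 members called against 1.14% of all genes. That call was lost when Ldha was rescaled to TPM or without mitochondrial genes, quantile normalized or centred on the library median. It was also lost with either marker covariate, without the 2 D-Ala libraries of CT0 in the first table, and without vehicle CT4 replicate 2, CT12 replicate 2, CT12 replicate 4 or CT16 replicate 4, or D-Ala CT0 replicate 3, CT4 replicate 3 or CT16 replicate 4. Pkm had amplitudes of 0.35 in the first table (peak at 0.199 h, adjusted p = 0.115) and 0.23 in the second (peak at 19.5 h, adjusted p = 0.0112).

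**Figure D4:**
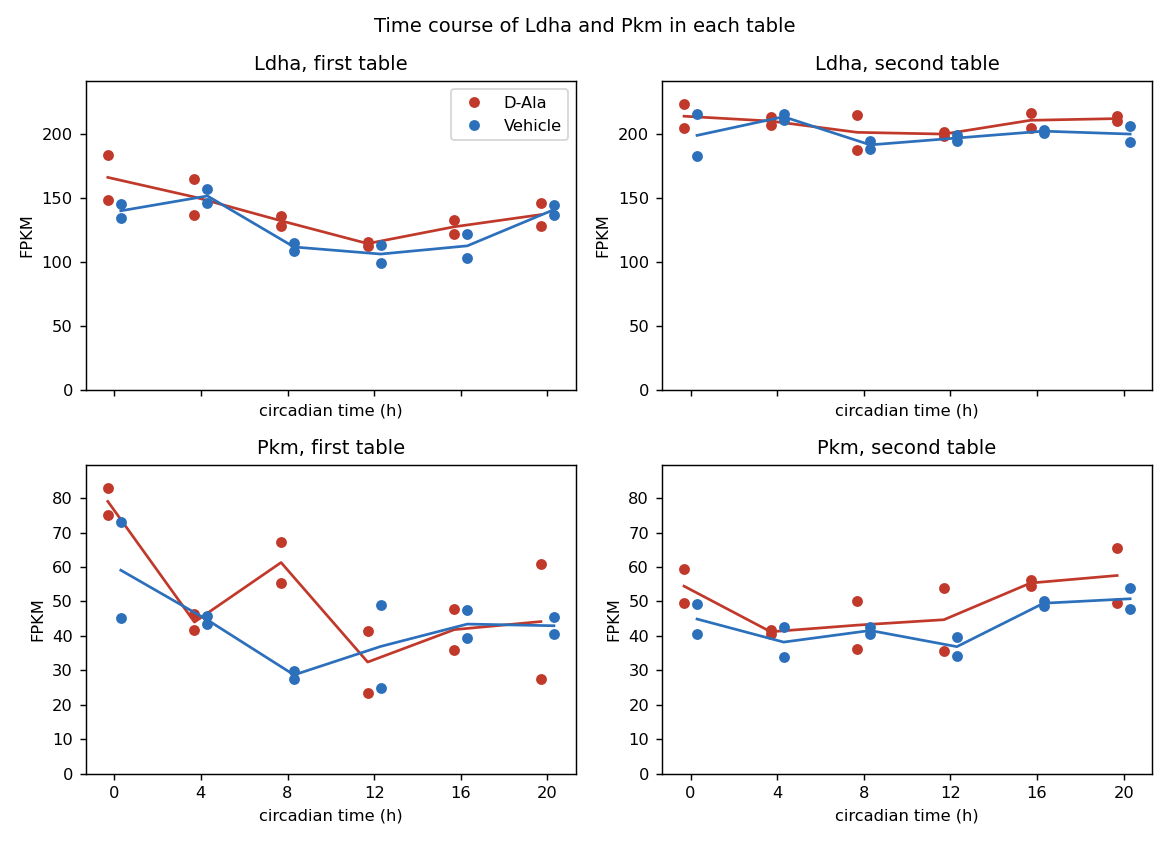
FPKM of Ldha (upper row) and Pkm (lower row) against circadian time in hours, in the first table (left) and the second (right), with D-Ala in red and vehicle in blue; points are libraries and lines join the means of 2 libraries. Ldha dips around CT12 in the first table and stays between 182 and 223 FPKM in the second.

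Pkm had its highest mean at CT0 in the first table in both treatments, whereas in the second its means at CT16 and CT20 were above that at CT0. At CT0 it measured 75.0, 83.1, 59.3 and 49.5 FPKM in D-Ala and 72.9, 45.2, 49.2 and 40.6 FPKM in vehicle kidneys. At CT4 it measured 41.6, 46.4, 41.8 and 40.6 FPKM in D-Ala and 43.5, 45.7, 33.9 and 42.5 FPKM in vehicle kidneys. The 2 treatments overlapped at both times. At CT8 it measured 55.4, 67.2, 36.1 and 50.2 FPKM in D-Ala and 29.8, 27.5, 42.6 and 40.5 FPKM in vehicle kidneys. The first-table D-Ala values at CT8 lay above all 4 vehicle values, and the log2 difference was 0.55 (95% interval 0.08 to 1.02, adjusted p = 0.287). The endothelial sums at CT8 were likewise apart, at 93.1 to 209 FPKM in D-Ala and 66.0 to 87.6 FPKM in vehicle libraries, and the inner medulla and adipose lists had CT8 medians of 0.89 and 0.82; their part in the Pkm difference was not tested. At CT12 it measured 23.5, 41.3, 35.6 and 53.8 FPKM in D-Ala and 48.9, 24.9, 34.1 and 39.6 FPKM in vehicle kidneys. At CT16 it measured 47.7, 36.0, 54.5 and 56.2 FPKM in D-Ala and 47.5, 39.3, 50.2 and 48.7 FPKM in vehicle kidneys. At CT20 it measured 27.6, 60.8, 65.4 and 49.7 FPKM in D-Ala and 45.5, 40.4, 47.7 and 53.8 FPKM in vehicle kidneys. The groups overlapped at each of these 3 times. Pkm passed in neither treatment alone (adjusted p = 0.255 in D-Ala and 0.154 in vehicle). Its call ended without the 2 D-Ala libraries of CT0 in the first table (amplitude 0.19, adjusted p = 0.0999) and without D-Ala CT12 replicate 1 (0.21, adjusted p = 0.0523).

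Hk1, Pfkl and Pkm moved together across libraries of both tables, and opposite to Ldhb mainly in the first table. With table means removed, over 48 libraries that share groups, runs and scaling, Pearson r was 0.89 for Pfkl and Pkm (Spearman rho 0.91, 0.87 without the 2 farthest libraries), 0.88 for Hk1 and Pkm (0.88, 0.87) and 0.84 for Hk1 and Pfkl (0.86, 0.85). Against Ldhb, r was −0.57 for Hk1 (rho −0.51) and −0.57 for Pkm (rho −0.38). Within the first table r with Ldhb was −0.79 for Hk1, −0.70 for Pfkl and −0.71 for Pkm, and within the second −0.15, −0.09 and −0.19. Ldhb instead went with Pfkm (r = 0.65, rho 0.63, 0.56 without the 2 farthest).

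The summed markers of several cell types went with these enzymes. The endothelial sum, over 7 genes of which none was at 0 in all libraries, had r of 0.86 with Hk1, 0.85 with Pfkl and 0.89 with Pkm, and between 0.83 and 0.91 with each of these within a table. Most of the endothelial sum was 1 gene, Plvap, with means of 94.7 of 147 FPKM in D-Ala and 71.1 of 113 FPKM in vehicle libraries. With Ldhb the endothelial sum had r of −0.64, which was −0.81 in the first table and −0.14 in the second. The inner medulla and thin limb sum had r of 0.78, 0.78 and 0.80 with Hk1, Pfkl and Pkm. Most of that sum was 1 gene, Aqp1. It averaged 241 of 337 FPKM in D-Ala and 229 of 279 FPKM in vehicle libraries. The proximal tubule sum, over 7 genes, had r of −0.79 with Hk1, −0.69 with Pfkl and −0.78 with Pkm, against 0.84 with Ldhb and 0.56 with Pfkm. The value for Pfkm was 0.76 in the first table and 0.16 in the second. The distal convoluted tubule sum also went with both, with r of 0.76 for Ldhb and 0.58 for Pfkm. Its value for Pfkm was 0.63 in the first table and 0.52 in the second. The principal cell sum had r of 0.68, 0.70 and 0.66 with Hk1, Pfkl and Pkm, and −0.63 with Ldhb. Endothelial sums ran from 64.5 to 458 FPKM in D-Ala and from 61.9 to 192 FPKM in vehicle libraries, and all 7 genes of that list had a mean difference above 0, with a median of 0.19 and 0 called. Over all genes tested, 76.3% had a mean difference above 0, with a median of 0.06. The inner medulla and thin limb list had 4 of 4 above 0 with a median of 0.26, and 0 called. The adipose list had 4 of 4 tested genes above 0 with a median of 0.36, and 0 called. Its sum ran from 7.36 to 51.8 FPKM in D-Ala and from 6.01 to 25.5 FPKM in vehicle libraries. Most of it was Fabp4, a fatty acid binding protein that capillary endothelium also makes, and 3 of its 5 genes had a mean under 1 FPKM. Fabp4 averaged 13.7 FPKM in D-Ala and 10.7 FPKM in vehicle libraries. In the same order Adipoq averaged 0.679 and 0.0952 FPKM, Plin1 0.177 and 0.0399, Cidec 0.649 and 0.241, and Ucp1 1.52 and 0.528. The adipose sum had r of 0.63 with Hk1, 0.74 with Pfkl and 0.74 with Pkm. Proximal tubule sums ran from 1855 to 4439 FPKM in D-Ala and from 2268 to 4178 FPKM in vehicle libraries. Most of the proximal tubule sum was Slc34a1, with means of 1903 of 3229 FPKM in D-Ala and 1948 of 3303 FPKM in vehicle libraries.

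**Figure D5:**
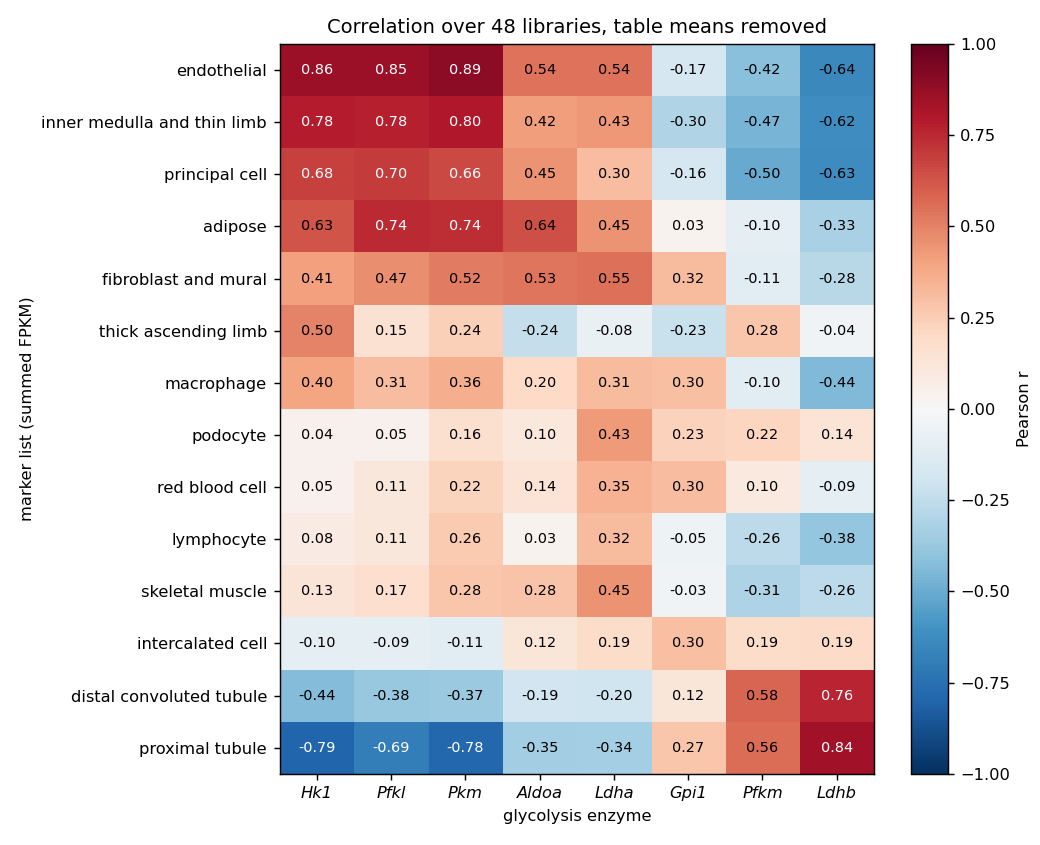
Pearson r, over 48 libraries with table means removed, between log2(FPKM + 1) of 8 enzymes (columns) and the log2 of summed FPKM of 14 cell type marker lists (rows), from −1 in blue to 1 in red. Hk1, Pfkl and Pkm have r of 0.78 or more with the endothelial and inner medulla sums and −0.69 or less with the proximal tubule sum, and Ldhb has the opposite signs.

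With the endothelial sum as a covariate, a fit added after the data were seen, the mean difference between D-Ala and vehicle was −0.02 for Hk1, 0.03 for Pfkl and −0.005 for Pkm, against 0.13, 0.17 and 0.18 without it. That of Gpi1 was 0.09, against 0.07 without it. The median over all genes tested was 0.03 with this covariate and 0.06 without it. This covariate is the sum, mostly Plvap, that had r of 0.86, 0.85 and 0.89 with Hk1, Pfkl and Pkm. With the proximal tubule sum as the covariate, the mean differences of Hk1, Pfkl and Pkm stayed above 0, and none passed. The Ldha rhythm kept an amplitude of 0.12 with the endothelial sum (adjusted p = 0.00046) and 0.13 with the proximal tubule sum (adjusted p = 0.00191). The Pkm amplitude was 0.11 with the endothelial sum (adjusted p = 0.0437) and 0.09 with the proximal tubule sum (adjusted p = 0.329), against 0.24 without a covariate.

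The genes whose pattern over the 48 libraries was most like each enzyme, by Pearson r with table means removed, were as follows. For Hk1 they were Tacc1 (r = 0.92), the actin-severing gelsolin Gsn (0.91) and the endothelial adhesion molecule Esam (0.90). Those of Pfkl included the annexin Anxa6 (0.91) and the perlecan gene Hspg2 (0.90), and Pkm was closest to Anxa6 (0.92), Kctd10 (0.92) and Ehd4 (0.91). Ldhb was closest to Qdpr, which regenerates tetrahydrobiopterin (0.87), to the cobalamin carrier transcobalamin Tcn2 (0.86) and to the arsenic methyltransferase As3mt (0.84). For Pfkm they were Ldhb (0.65), the sodium-proton exchanger Slc9a2 (0.65) and Slc25a23 (0.64). Gpi1 was closest to Wdr18 (0.79), Stard10 (0.78) and the proteasome subunit Psmb4 (0.78), Aldoa to the splicing factors Eftud2 (0.74) and Puf60 (0.73) and to Agpat2 (0.72), and Ldha to the sterol sensor Scap (0.77), to Gpat4 (0.77) and to Ddx54 (0.75).

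Around the enzymes, some carriers and regulators of pyruvate and lactate changed with time of day. Of the 26 other genes tested, 5 passed for the 24 h curve of both treatments, a share under the 25.9% of all genes. Slc16a1, the lactate and pyruvate carrier MCT1, had the largest of these amplitudes, 0.76 (SE 0.07, 2.88-fold, peak at 23.2 h, adjusted p = 2.91e-11). It averaged 6.32 ± 3.89 FPKM in D-Ala and 6.11 ± 3.19 FPKM in vehicle libraries (SD, n = 24 each). The related carrier Slc16a7 peaked at 1.09 h (1.41-fold) and the phosphofructokinase Pfkp at 22.1 h (1.298-fold). Pdk2, a kinase that shuts off pyruvate dehydrogenase, peaked at 8.92 h (1.43-fold), and Mpc1, a subunit of the mitochondrial pyruvate carrier, at 13.0 h (1.26-fold). Of these 5, Slc16a1, Mpc1 and Pdk2 also passed in each treatment alone. Of the 12 hypoxia genes, 5 passed: Ndrg1 peaked at 22.9 h (2.60-fold), P4ha1 at 20.97 h (1.57-fold), Epas1 at 21.03 h (1.17-fold), the carbonic anhydrase Car9 at 9.89 h (2.17-fold) and Bnip3 at 11.9 h (1.37-fold).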

How the data were processed

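Kidney RNA of 48 libraries in 12 groups of treatment and time was analysed. Per the labels' protocols, a column kit was used for RNA and a SMARTER mRNA kit for the libraries. Expression was deposited as FPKM (fragments per length assigned to the gene and per size of the library), with 1 column per library. The submitters' processing notes name GRCm38 (mm10) as the build. The aligner, counter, filters and strand setting were not given in the sources used here. FPKM of every gene depends on the library total, so abundant transcripts shift all others. Fragment totals were recovered from the steps of low values: 97.0% to 97.6% of values below 20 fragments, in genes annotated with a single transcript, were whole within 0.05, using GENCODE M21 exon lengths.

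Groups came from the labels; replicate numbers follow sample order and pair nothing. Replicate pairs differed beyond sampling noise, with r of 0.945 to 0.987 within a table. Values were analysed as log2(FPKM + 1), a scale that understates changes of low genes, with limma 3.58.1 in R 4.3.3 with a trend, a term for the table, and Benjamini-Hochberg adjustment over 14922 genes at 0.05, two-sided. Rhythms were 24 h cosine and sine terms per treatment with F tests. The model was checked on simulated data. Members and lists were chosen with earlier results of these data known. Named were all members, of the other listed glycolysis genes those that passed or the 3 with the smallest p, and for each member the 3 genes with the highest r; some of the genes so chosen are not reported here. Coordinates are those of the deposited tables, and promoters are from RefSeq on GRCm38.p6.

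Alternatives were a pseudocount of 0.1, no filter, TPM, quantile normalization, median centring, rescaling without mitochondrial genes, no table term, each table alone, robust moderation, voom and leaving out each library. Marker covariates, the fit without 2 libraries and the test of rhythm by table were added after the data were seen. Intervals cover the spread between these libraries only.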

Additional observations from a re-analysis of the deposited data

Results flagged for a closer look

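In 3 of 108 combinations of enzyme and group, 2.78%, 1 library lay far from the other 3 by Dixon's ratio of gap to range. For 4 values of 1 population chance alone flags about 5% of groups. Levels of the tables were not removed, and each group holds 2 libraries of each table. The 5% therefore does not hold for enzymes whose level differs between tables, such as Ldha and Ldhb. Vehicle CT16 replicate 2 had 8.70 FPKM of Hk1, against 12.3 to 12.9 FPKM in the other libraries of its group. Vehicle CT20 replicate 2 had 8.17 FPKM of Hk1, against 11.5 to 12.03 FPKM in the others. D-Ala CT12 replicate 1 had 0.145 FPKM of Hk2, against 0.0557 to 0.0641 FPKM in the others.

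The 24 h curve of Ldha differed between the 2 tables (adjusted p = 0.0310), with amplitudes of 0.24 in the first and 0.04 in the second on the log2 scale. The call was lost with TPM, quantile normalization, median centring, rescaling without mitochondrial genes and either marker covariate, and also without any 1 of 7 libraries.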

How the results depend on the processing

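No paired analysis was possible because replicate numbers follow sample order and pair nothing. For the mean difference, 0 members were called in every alternative except TPM, where 3 were. All genes called, 259, were 2479 with TPM, 145 without a filter, 14 with quantile normalization, 23 with median centring, 53 without mitochondrial genes, 17 without a table term, 0 and 14 in the first and second table alone, 135 and 462 with the endothelial and proximal tubule covariates, 164 without the 2 D-Ala CT0 libraries, and 93 to 631 with each library left out. The sign of Pfkm turned with TPM (0.036), in the second table (0.088), with the endothelial (0.026) and proximal tubule (0.00384) covariates, and without the 2 libraries (0.021); leaving out each library gave −0.041 to 0.00412. That of Ldhb turned with median centring (−0.058), without mitochondrial genes (−0.00622) and in the first table (−0.054), with −0.00478 to 0.030 over left-out libraries. With the endothelial covariate Hk1 was −0.016 and Pkm −0.00496. At CT0, TPM called 2 members, Hk1 and Ldha, against 13.5% of all genes tested on that scale. Leaving out each library called 0 to 1 at that time.

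Members called for the curve of both treatments were 1, not 2, without a table term, in the first table, with the proximal tubule covariate and without the 2 libraries, and 1 to 3 over left-out libraries; all genes called, 3872, were 1994 without a table term and 1755 in the first table. In D-Ala, 0 members were called, not 1, with no filter, median centring, no table term, either table alone, either covariate and without the 2 libraries. Over left-out libraries this count was 0 to 1. In vehicle, 0 were called with TPM, no table term and the second table, and 0 to 1 over left-out libraries. The rhythm by table call was 0 with TPM, quantile normalization, median centring, no mitochondrial genes, either covariate and without the 2 libraries, and 0 to 1 over left-out libraries. For the curve of both treatments, 12.3% of all genes passed in the first table and 20.4% with the proximal tubule covariate, against 25.9% in the main fit. For the rhythm tests within a treatment, of their difference and by table, the shares of all genes called in the alternatives were not recorded. Those of voom at single times were not recorded either. The cause of the changes in these counts was not tested. Hk2, at 1 to 43 fragments, was limited by depth.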
